A study of Mus musculus with 48 samples.

Results

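Messenger RNA of mouse fibroblasts with and without tristetraprolin (TTP) was compared 30 min after transcription was blocked with actinomycin D, on the 10 arrays of that time among 48 arrays in the series. The 5 KO arrays came from a fibroblast line with both copies of Zfp36, the gene for TTP, disrupted (Zfp36 -/-), and the 5 WT arrays from a line of a littermate embryo (Zfp36 +/+). Both lines derive from embryos of stage E14.5 without head and organs, of strain 129/B6, and the labels appear to describe 1 line per genotype. Cells were kept in 0.5% serum for 16 h and then in 10% serum for 90 min before actinomycin D was added, and each sample combined 3 dishes of 100 mm. The series text gives 5 µg/ml of actinomycin D and the sample names 0.5 µg/ml, and it remained unclear which applied. Each experiment, 1 to 5, handled both lines side by side, so that the KO and WT arrays of an experiment were taken as a pair. The same lines at 0 min (5 WT and 4 KO arrays) and at 120 min (5 of each) served to place the differences at 30 min in time. Because both lines may be single clones or cultures, p-values measure the spread between experiments within these lines, and an effect of Zfp36 cannot be told apart from other differences between the lines.

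TTP is a zinc finger protein that attaches to AU-rich stretches of messenger RNA and recruits the deadenylation machinery, so that bound transcripts are shortened and degraded. Serum given to resting fibroblasts switches on immediate-early genes, among them transcription factors, phosphatases that feed back on MAP kinases, and cytokines, and many of their transcripts carry AU-rich elements and decay fast. Actinomycin D stops RNA synthesis, so the signal that is left at a later time reflects how much RNA was there before and how much of it has since decayed. A transcript with a very short life can be at the floor of an array by 120 min in both lines, which leaves an early time as the place where the lines can be set side by side.

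Of 23568 probe sets tested at 30 min, 3272 (13.9%) were higher in KO and 2636 (11.2%) lower, at an adjusted p under 0.05 in limma's paired fit (5908 in either direction, 25.1%). Without experiment 4 there were 2053 higher, and without experiment 5 there were 2123. On the level of genes, with 1 probe set each, 1803 of 11539 genes were higher (15.6%) and 1411 lower (12.2%), and the median difference over all genes was -0.0054 on the log2 scale. Few differences were large, with 93 probe sets at least 2-fold higher and 140 at least 2-fold lower. Array medians lay between 8.47 and 8.55, 5th percentiles between 8.02 and 8.11 and maxima between 13.28 and 13.40, all as log2 signal. The highest 5th percentile over the 48 arrays, 8.13, is used below as the floor, and differences that end near it are compressed. After subtraction of background the log2 difference at 30 min was over 1.5 times as large for 50 of the 117 genes named here. The WT array of experiment 3 had the highest median and 5th percentile of the 10.

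Fibroblast markers matched the label, with a mean over the list of 10.84 to 10.98 log2 in the WT arrays and 10.81 to 11.03 in the KO arrays. Thy1 of this list was near background in both lines, with means of 8.14 in WT and 8.06 in KO. Lists of epithelial, muscle, endothelial, blood, neural, cartilage and bone, and adipocyte markers averaged between 8.27 and 8.88 in every array. Single members lay well above that in both lines, such as Map2 (means of 10.28 in WT and 10.07 in KO), Sox9 (10.04 and 10.10) and Fabp4 (9.96 and 9.75). Among those lists, Tubb3 of the neural list was 0.88 log2 higher in KO, while Pparg and Lpl of the adipocyte list, Egfl7 of the endothelial list and Actc1 of the muscle list were lower. Xist, the noncoding RNA of the inactive X chromosome, gave 10.69, 10.89, 9.52, 10.06 and 10.37 in WT and 8.75, 9.14, 9.27, 8.21 and 8.24 in KO (difference -1.58 ± 0.23 SE, limma adjusted p = 0.00124). The Y-linked genes Eif2s3y and Uty lay between 8.58 and 8.68 in both lines. The part of these line differences in the results below was not tested, and in RNA from whole cultures fewer cells of a type and less RNA per cell cannot be told apart.

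Zfp36 was itself a short-lived transcript after serum. At 30 min its probe set gave 8.68, 9.26, 8.80, 8.52 and 8.46 in WT and 8.69, 8.86, 8.64, 8.68 and 8.47 in KO, in experiments 1 to 5. These arrays overlapped, and the difference was -0.076 ± 0.070 (SE, limma adjusted p = 0.48). The position of this probe set with respect to the disruption is not stated, so it checks nothing about the genotype. Of its relatives, which bind the same kind of element, Zfp36l1 was higher in KO, from 11.66 to 11.90 against 11.23 to 11.54 in WT (difference 0.40 ± 0.062, adjusted p = 0.00153). Zfp36l2 had a difference of -0.025 (adjusted p = 0.843) with its sign turned to 0.10 in experiments 1 to 3. Of the other 2 probe sets of Zfp36l2, 1 was called lower in KO (-0.13, adjusted p = 0.0426) and 1 did not pass (0.090, adjusted p = 0.6).

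The time of 30 min bears most on transcripts that had already fallen. A probe set was called short-lived where its signal fell by at least 1 log2 between 0 and 30 min in WT or in KO with an adjusted p under 0.05, which held for 19 probe sets (0.0806%) of 15 genes, for 51 probe sets after subtraction of background and for 11 in experiments 1 to 3. The change from 0 to 30 min in WT rests on 5 experiments and in KO on the 4 with an array at 0 min. Of the 15 genes, 5 were higher in KO at 30 min, 3 were lower and 7 did not pass the test. The called shares were 33.3% and 20%, beside 15.6% and 12.2% of all genes. Since the rule used the 30 min arrays of both lines, these counts describe the group and are no test of it. The arrays of both lines did not overlap for 2 of the genes that were higher in KO and for the 3 that were lower, where 9.98% of all probe sets had every KO array above every WT array and 8.44% every KO array below.

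**Figure D1:**
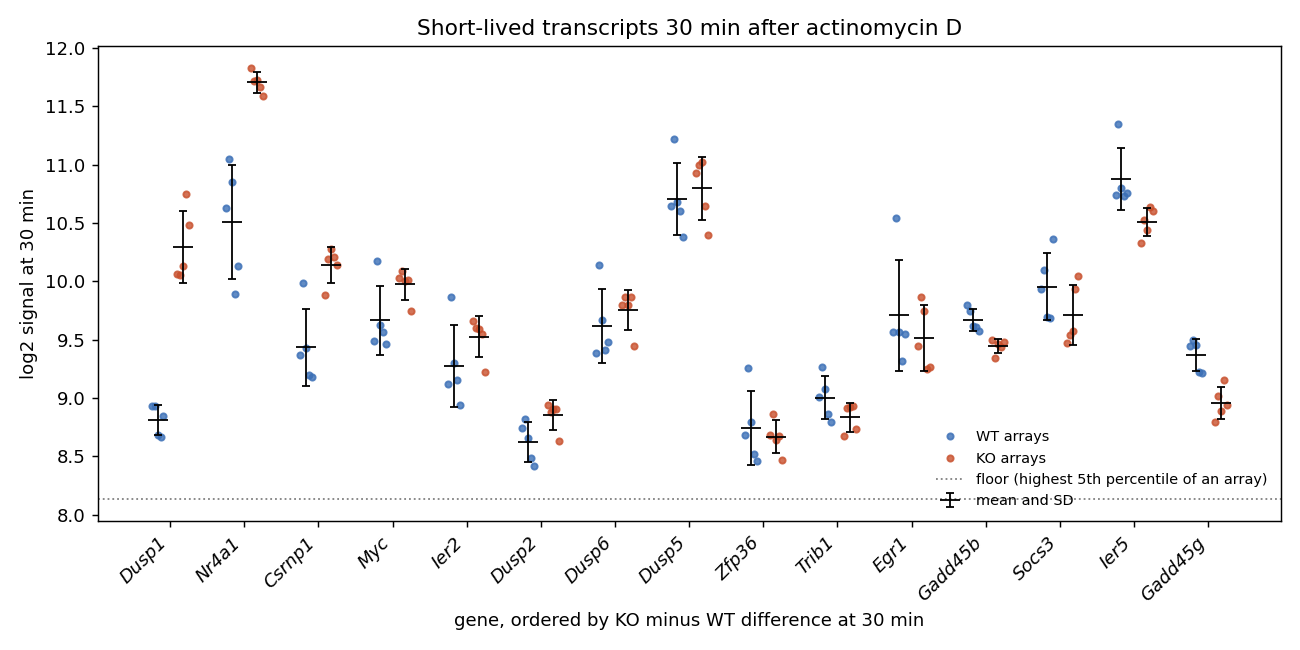
Log2 signal at 30 min of actinomycin D in each of the 5 WT arrays (blue) and 5 KO arrays (orange) for the 15 short-lived genes, with mean and SD over arrays in black and the floor of 8.13 as a dotted line. Dusp1 and Nr4a1 have every KO array above every WT array, Gadd45b, Gadd45g and Ier5 have every KO array below, and the other genes overlap.

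Dusp1 had the largest difference of the 15. It encodes a nuclear phosphatase that turns off p38, JNK and ERK MAP kinases. The WT arrays gave 8.93, 8.94, 8.69, 8.67 and 8.85, and the KO arrays 10.06, 10.05, 10.13, 10.75 and 10.48. All KO arrays lay more than 1 log2 above all WT arrays, and experiments 4 and 5 were the highest in KO. The means were 8.81 ± 0.13 in WT and 10.30 ± 0.31 in KO (SD, n = 5), a 2.79-fold difference (1.48 ± 0.13 log2, SE, limma adjusted p = 6.37e-05). Over the first 30 min Dusp1 fell by 1.22 ± 0.060 in WT and by 0.91 ± 0.057 in KO (SE), and the lines already differed at 0 min by 1.16 ± 0.095 (adjusted p = 0.000164). The step from 0 to 30 min in this difference, 0.28 ± 0.089, did not pass (adjusted p = 0.986). By 120 min the difference had shrunk to 0.22 ± 0.029, with WT at 8.41 and KO at 8.63, and the change from 30 to 120 min passed the test (1.26 ± 0.13, adjusted p = 0.0057).

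Nr4a1, an orphan nuclear receptor of the immediate-early class, gave 10.62, 11.04, 10.85, 9.89 and 10.13 in WT and 11.83, 11.72, 11.72, 11.66 and 11.59 in KO. The KO arrays were tightly grouped, whereas the WT arrays spread over more than 1 log2, lowest in experiments 4 and 5. The difference was 1.20 ± 0.14 (SE, limma adjusted p = 0.000311), or 2.29-fold. Nr4a1 fell by 1.02 ± 0.12 in WT within 30 min and by 0.33 ± 0.054 in KO. The difference at 0 min was 0.53 ± 0.095 (adjusted p = 0.00691), and the step to 30 min of 0.60 ± 0.10 did not pass (adjusted p = 0.986). At 120 min it was 0.50, and the change from 30 to 120 min of 0.70 passed (adjusted p = 0.0335), but not without experiment 1, 2, 4 or 5 (highest adjusted p = 0.216) and not after subtraction of background (adjusted p = 0.526).

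The promoters of both genes that stood apart on the high side, and of Gadd45g, the short-lived gene with the lowest difference, are shown because serum and cyclic AMP act on immediate-early promoters through a few known elements. They run from 250 bases before to 50 bases after the transcription start, in the RefSeq annotation of GRCm38.p6. Both strands were searched for the cyclic AMP response element (CRE, TGACGTCA), its half-site TGACG, the AP-1 site TGANTCA and the CArG box of serum response factor. Capitals mark matches, and a CRE also counts as half-sites on both strands. Dusp1 lies at chr17:26508423-26508722 on the minus strand, Nr4a1 at chr15:101266596-101266895 on the plus strand and Gadd45g at chr13:51846425-51846724 on the plus strand.
Dusp1: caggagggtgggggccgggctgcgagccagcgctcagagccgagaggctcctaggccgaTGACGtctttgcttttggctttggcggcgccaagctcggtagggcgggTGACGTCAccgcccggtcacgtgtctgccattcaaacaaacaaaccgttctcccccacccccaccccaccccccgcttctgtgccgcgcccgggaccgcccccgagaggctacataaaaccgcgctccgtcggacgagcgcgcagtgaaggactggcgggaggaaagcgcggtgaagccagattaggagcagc
Nr4a1: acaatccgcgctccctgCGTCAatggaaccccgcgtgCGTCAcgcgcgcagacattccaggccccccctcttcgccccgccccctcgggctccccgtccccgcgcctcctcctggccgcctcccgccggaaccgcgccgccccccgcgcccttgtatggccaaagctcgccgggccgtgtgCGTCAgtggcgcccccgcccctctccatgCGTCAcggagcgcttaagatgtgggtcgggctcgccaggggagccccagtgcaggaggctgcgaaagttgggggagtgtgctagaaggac
Gadd45g: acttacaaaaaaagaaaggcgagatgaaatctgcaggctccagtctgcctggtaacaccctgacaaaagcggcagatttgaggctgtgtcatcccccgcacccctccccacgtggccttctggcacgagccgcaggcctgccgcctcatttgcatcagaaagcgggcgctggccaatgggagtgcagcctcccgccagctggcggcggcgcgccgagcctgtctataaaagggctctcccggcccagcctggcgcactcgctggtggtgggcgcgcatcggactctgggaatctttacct
The Dusp1 window holds 1 CRE, which begins 143 bases before the start, and 3 half-site matches, 2 of them inside that CRE. A CRE occurs in 1.79% of 32851 such windows. The Nr4a1 window holds 4 half-sites, which begin 233, 213, 69 and 40 bases before the start, where 20.8% of windows hold at least 1. The Gadd45g window holds none of the 4 motifs, which says only that these letters are not in this window. AP-1 (7.81% of windows) and the CArG box (1.63%) had no match in any of the 3 windows.

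Csrnp1, a cysteine- and serine-rich nuclear protein of the immediate-early class, gave 9.37, 9.98, 9.43, 9.20 and 9.18 in WT and 9.88, 10.20, 10.28, 10.21 and 10.14 in KO. It was higher in KO in 5 of 5 experiments, although the WT array of experiment 2 lay above the KO array of experiment 1 (difference 0.71 ± 0.11 SE, limma adjusted p = 0.00202). Both lines had reached 8.55 and 8.58 at 120 min, with no difference past the threshold (adjusted p = 0.455). Dusp2, another MAP kinase phosphatase, was 0.23 ± 0.051 higher (adjusted p = 0.0107, and 0.0531 without the pairing), after a fall of 1.53 in WT and 1.55 in KO that took both lines to between 8.42 and 8.94. Myc, the growth-promoting transcription factor, was 0.31 ± 0.089 higher (adjusted p = 0.0318) in 4 of 5 experiments, with WT arrays from 9.47 to 10.17 and KO arrays from 9.75 to 10.09. This call for Myc was lost without experiment 1, 3, 4 or 5, where the adjusted p reached 0.113.

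The 3 short-lived genes that were lower in KO at 30 min were stress and growth-arrest genes and an immediate-early gene. Gadd45g, which acts in p38 and JNK signalling, gave 9.45, 9.50, 9.45, 9.23 and 9.21 in WT and 8.79, 9.02, 8.89, 9.16 and 8.94 in KO. The groups did not overlap, and the gap was narrow in experiments 4 and 5 (difference -0.41 ± 0.084 SE, limma adjusted p = 0.00729). At 0 min the difference had been -1.41 ± 0.068, and Gadd45g fell by 2.12 in WT and by 1.15 in KO within 30 min. The resulting step of 0.97 ± 0.084 had the lowest adjusted p of the 15 genes, 0.262, and did not pass either.

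Gadd45b, of the same family, gave 9.80, 9.75, 9.62, 9.61 and 9.57 in WT and 9.49, 9.34, 9.46, 9.44 and 9.48 in KO. At this probe set the difference was -0.74 at 0 min, -0.23 at 30 min (adjusted p = 0.0312) and -0.0078 at 120 min. Its call at 30 min was lost without experiment 1, 2, 4 or 5 (adjusted p up to 0.107). The other tested probe set of Gadd45b was called lower in KO at 30 min (-0.47, limma adjusted p = 0.00113) and still at 120 min (-0.24, adjusted p = 0.00269). Ier5, an immediate-early gene, gave 10.74, 11.35, 10.80, 10.73 and 10.76 in WT and 10.33, 10.53, 10.44, 10.63 and 10.60 in KO. The WT array of experiment 2 stood above the rest, and the difference of -0.37 ± 0.097 (adjusted p = 0.0225) was not past the threshold without experiment 1 (-0.25 was the smallest value over the experiments left out, adjusted p up to 0.0709).

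The 7 short-lived genes that did not pass at 30 min were Ier2, Dusp5, Dusp6, Zfp36, Trib1, Egr1 and Socs3. Their differences ran from -0.24 for Socs3, an inhibitor of cytokine receptors, to 0.25 for the immediate-early gene Ier2 (adjusted p = 0.115). Egr1, the zinc finger factor that is a standard reporter of serum stimulation, fell by 1.03 in WT and by 1.08 in KO and then differed by -0.19 (adjusted p = 0.233). The WT array of experiment 2 was the highest for Egr1, Ier2, Dusp5, Dusp6, Zfp36 and Trib1, at 10.54 for Egr1 where the other WT arrays lay between 9.32 and 9.57. In the fit over all 48 arrays, Ier2, Socs3 and Trib1 passed (adjusted p = 0.00761, 0.0319 and 0.0367).

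The comparison of 30 with 120 min asks which early differences had gone. The difference between the lines changed between those times at 52 probe sets (0.221%), with 18 (0.0764%) where KO minus WT was higher at 30 min and 34 (0.144%) where it was lower, and 1526 had p under 0.05 before adjustment. They cover 37 genes. Of these, 10 were higher in KO at 30 min and less so at 120 min, 10 were lower and less so, 11 were higher and more so, and 6 had opposite signs. Faded means here a call at 30 min, no call at 120 min and a change between them past the threshold, and 8 probe sets faded from higher (0.0339%) and 8 from lower (0.0339%), which include 5 and 6 genes.

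**Figure D2:**
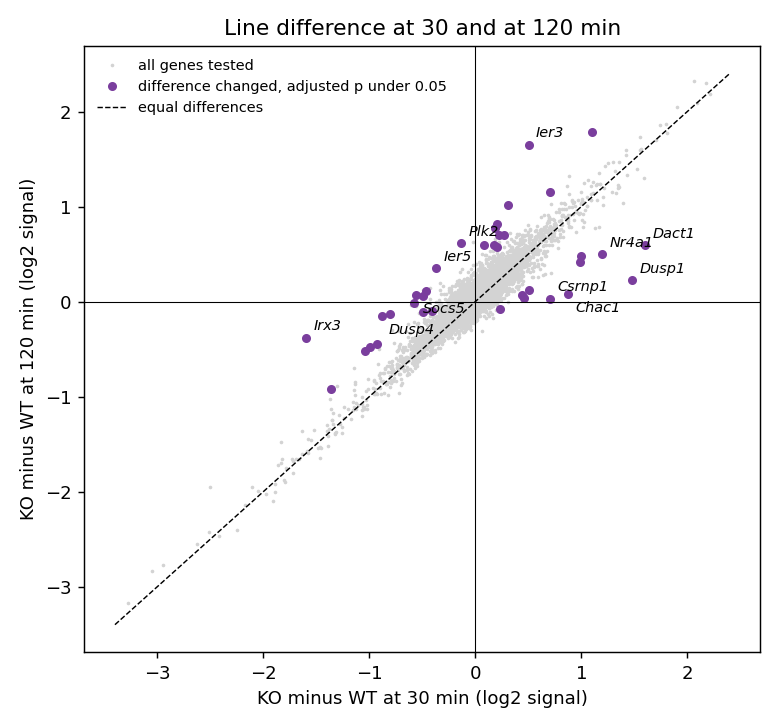
KO minus WT difference in log2 signal at 30 min (x axis) against 120 min (y axis) for all 11539 genes (grey) and the 37 whose difference changed between those times (purple); the dashed line marks equal differences. Dusp1, Chac1, Csrnp1, Nr4a1 and Dact1 lie below the line on the right, Ier3 above it, and Irx3, Dusp4 and Socs5 above it on the left.

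The 5 genes that faded from higher were Chac1, Csrnp1, Foxq1, Zfp703 and Dusp2. Chac1, which degrades glutathione and is induced by amino acid and endoplasmic reticulum stress, gave 8.68, 8.81, 8.57, 8.77 and 8.90 in WT and 9.35, 9.38, 9.71, 9.91 and 9.75 in KO at 30 min. The groups did not overlap (difference 0.87 ± 0.092 SE, limma adjusted p = 0.000185). Its difference was 0.95 at 0 min and 0.085 at 120 min, when both lines were at the floor (8.03 and 8.11), and the change passed with each experiment left out. Foxq1 (0.46), a forkhead factor, and Zfp703 (0.44), a zinc finger corepressor, had every KO array above every WT array at 30 min. The WT signal of Foxq1 lay between 8.29 and 8.43, near the floor, and its KO arrays of experiments 4 and 5, at 8.52 and 8.59, were below the others, at 9.01 to 9.04.

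The 6 genes that faded from lower were Socs5, Cnksr3, Ppp1r12b, Neat1, S1pr2 and Mtss1. Socs5, an inhibitor of cytokine and epidermal growth factor receptor signalling, gave 10.98, 10.87, 10.85, 10.94 and 10.81 in WT and 10.38, 10.41, 10.39, 10.28 and 10.19 in KO at 30 min. The groups did not overlap (difference -0.56 ± 0.055 SE, limma adjusted p = 0.000114). By 120 min WT had come down to 9.63 ± 0.22 and KO to 9.70 ± 0.10 (SD, n = 5), well above the floor. The change of -0.63 ± 0.098 had an adjusted p of 0.0311, which became 0.0607 after background subtraction and up to 0.162 without experiment 2, 4 or 5. The other probe set of Socs5 that was tested had a difference of -0.11 at 30 min and did not pass.

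Neat1, the architectural noncoding RNA of paraspeckles, gave 10.73, 9.98, 10.29, 10.40 and 10.33 in WT and 10.12, 9.65, 9.85, 9.85 and 9.82 in KO. It was lower in KO in 5 of 5 experiments although the groups overlapped (-0.49 ± 0.061, adjusted p = 0.000465), and at 120 min the difference was 0.057. Differences at 30 min were -0.58 for Ppp1r12b, a myosin phosphatase subunit, -0.50 for the sphingosine phosphate receptor S1pr2, -0.47 for the Ras pathway scaffold Cnksr3 and -0.41 for the membrane-bending protein Mtss1, with no overlap of the arrays. The KO arrays of Mtss1 were low at 30 min, at 8.54 to 8.69, and 2 of its 4 tested probe sets had no call. For the mean of its probe sets the change from 30 to 120 min did not pass (limma adjusted p = 0.223). All 6 genes that faded from lower were called lower in KO at 0 min too, with differences from -0.75 to -0.54. Of the 11 genes that faded, only Chac1 kept the change with every experiment left out, 2 kept it in experiments 1 to 3 alone (Chac1 and Foxq1), 5 without the pairing and 0 after background subtraction, where the lowest adjusted p of the 11 was 0.0596.

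**Figure D3:**
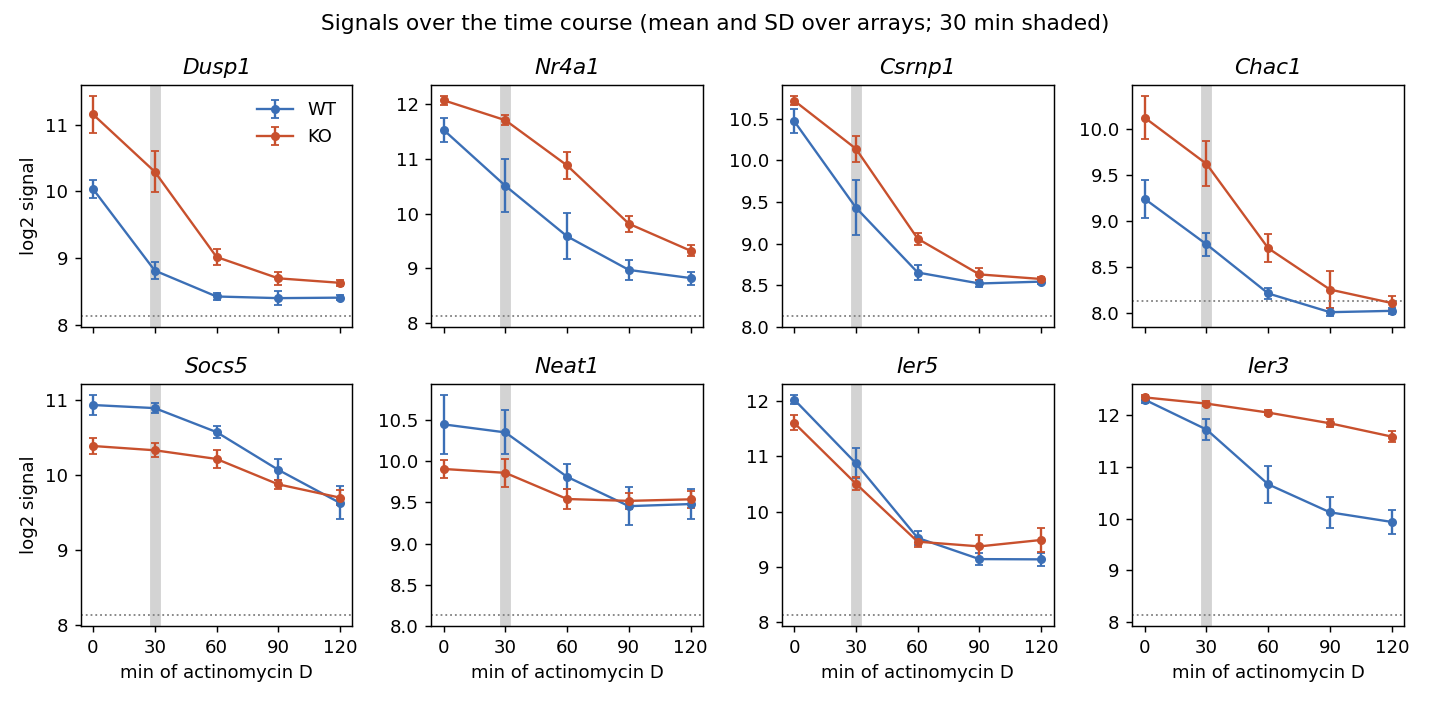
Log2 signal of 8 genes over 0 to 120 min of actinomycin D in WT (blue) and KO (orange), as mean and SD over 5 arrays (4 for KO at 0 and 60 min), with 30 min shaded and the floor dotted. The lines lie apart at 30 min and meet by 120 min for Csrnp1, Chac1, Socs5 and Neat1, cross for Ier5 at the probe set shown, and are still opening at 30 min for Ier3.

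At the probe sets that represent them, Ier5 and Tle4 were called lower in KO at 30 min and higher at 120 min. For Ier5 the difference went from -0.37 to 0.35, a change of -0.72 ± 0.089 (adjusted p = 0.00866), which was lost without experiment 2 or 5 (adjusted p up to 0.0611) and kept after background subtraction (adjusted p = 0.00468). The other tested probe sets of Ier5 went from -0.235 to 0.022 and from -0.274 to -0.043. They were not called at 120 min, and their changes did not pass (limma adjusted p = 0.381 and 0.281). For Tle4, a corepressor of the Groucho family, the difference went from -0.31 to 0.16, but the change itself did not pass (adjusted p = 0.0701), and the call at 30 min was lost without experiment 1, 2, 4 or 5 (adjusted p up to 0.074) and in experiments 1 to 3 (adjusted p = 0.154). The other tested probe set of Tle4 had no call at 30 min (-0.071, limma adjusted p = 0.359). Plk2, a kinase of the polo family that p53 induces, gave 10.92, 11.14, 11.16, 11.01 and 10.65 in WT and 10.92, 10.91, 10.91, 10.93 and 10.55 in KO. It had no call at 30 min (-0.13, adjusted p = 0.11) and was 0.61 higher in KO at 120 min (change -0.75, adjusted p = 0.0057, and 0.0838 without experiment 2).

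Ier3, an immediate-early gene that acts against apoptosis and that the study itself took further, had begun to separate by 30 min. It gave 11.87, 11.88, 11.85, 11.39 and 11.62 in WT and 12.20, 12.18, 12.20, 12.28 and 12.27 in KO. No arrays overlapped, and the lowest WT arrays were those of experiments 4 and 5 (difference 0.50 ± 0.083 SE, limma adjusted p = 0.00239). The difference was 0.0375 at 0 min and 1.65 at 120 min. Ier3 fell by 0.58 ± 0.067 in WT over the first 30 min (adjusted p = 0.00719), where the change in KO was -0.13 ± 0.034 (adjusted p = 0.266). Its step from 0 to 30 min of 0.43 did not pass (limma adjusted p = 0.986).

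At the probe sets that represent them, other early members of the group that opened later were Smad1, Mcl1, Clcf1 and Cxcl1. Smad1, a BMP receptor substrate, differed by 0.31 at 30 min (adjusted p = 0.02, lost without experiment 1 or 4, up to 0.0633) and by 1.02 at 120 min. Mcl1, a survival protein of the Bcl2 family, differed by 0.22 and 0.70, and its call at 30 min was lost without experiment 1, 3, 4 or 5 (adjusted p up to 0.125). With all experiments, the 6 tested probe sets of Mcl1 were each called higher at 30 min (0.22 to 0.47). Clcf1, a cytokine of the interleukin 6 family, differed by 0.71 and 1.15, and the neutrophil chemokine Cxcl1 by 0.20 and 0.58. For Clcf1 the change from 30 to 120 min was lost with any single experiment left out (limma adjusted p up to 0.254). It was lost for Mcl1 and Cxcl1 without experiment 1, 2, 4 or 5 (up to 0.305 and 0.239), and for Smad1 without experiment 2, 4 or 5 (up to 0.195). The other tested probe sets of Clcf1 had changes of -0.133 and -0.125 that did not pass (adjusted p = 0.882 and 0.939). Those of Mcl1 and Cxcl1 had changes of the same sign that did not pass (adjusted p from 0.0718 and from 0.122 upward). For Smad1 a further probe set passed (-0.58, adjusted p = 0.0342), while another stood at 0.35 at 30 min and 0.34 at 120 min. The change of the mean of the Smad1 probe sets did not pass (adjusted p = 0.133). Mllt11 was 1.10 higher at 30 min and 1.78 higher at 120 min, while Ifrd1 had a difference of 0.21 at 30 min that did not pass (adjusted p = 0.194) and 0.81 at 120 min. The change of Mllt11 was lost without experiment 2 (limma adjusted p = 0.0599) and that of Ifrd1 without experiment 2 or 5 (up to 0.109).

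In the other direction, Dact1, an inhibitor of Wnt signalling, had one of the highest differences at 30 min, with WT arrays from 8.40 to 8.61 and KO arrays from 9.90 to 10.29. Its difference of 1.60 ± 0.060 (adjusted p = 4.92e-07) was 0.60 at 120 min. The forkhead factors Foxc2 (0.98 at 30 min, 0.42 at 120 min) and Foxf1 (1.00 and 0.48) did the same. Irx3, a homeobox factor, had a difference of -1.59 at 30 min and -0.38 at 120 min, with KO arrays between 8.32 and 8.38, close to the floor. Dusp4 (-0.89 at 30 min, -0.15 at 120 min), Cish (-0.81 and -0.13), the neuronal immediate-early gene Arc (-0.93 and -0.45) and Foxd1 (-1.36 and -0.92) also had smaller differences at 120 min. After subtraction of background the change from 30 to 120 min passed for Irx3 and Dusp4 but not for Dact1 (adjusted p = 0.147), Cish, Arc, Foxd1, Foxc2 or Foxf1, and that of Foxf1 went from 0.52 to 0.064. Arc gave 9.29, 9.46, 9.23, 9.00 and 8.88 in WT and 8.32, 8.39, 8.24, 8.15 and 8.10 in KO, the last ones at the floor.

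From 0 to 30 min no difference between the lines changed past the threshold in limma's paired fit over 4 experiments. Before adjustment 939 probe sets had p under 0.05, and 11 passed in the fit over all 48 arrays. At 0 min 4581 probe sets (19.4%) were called, 10.0% higher and 9.41% lower in KO, and at 120 min 8253 (35.0%), 21.7% higher and 13.3% lower, beside 25.1% at 30 min. Of the probe sets higher in KO at 30 min, 1980 of 3272 were called higher at 0 min and 2935 at 120 min. Of those lower, 1911 of 2636 were called lower at 0 min and 2057 at 120 min. In all, 3537 had the same call at the 3 times, and 562 were called at 30 min and at neither other time. The comparison at 0 min rests on experiments 1 to 4. In those 4 experiments alone, 2123 were higher and 1775 lower at 30 min, together fewer than the 4581 at 0 min, so the order of 0 and 30 min turned with the experiments used.

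Among the 10 genes highest in KO at 30 min, differences ran from 1.60 to 2.21 at 30 min and from 1.69 to 2.24 at 0 min, and at 120 min from 0.60 for Dact1 to 2.33. Tubb2b, a beta tubulin of developing neurons, led them, with 9.32, 9.13, 8.81, 8.88 and 8.80 in WT and 10.92, 10.94, 11.26, 11.46 and 11.42 in KO (2.21 ± 0.15 SE, limma adjusted p = 1.3e-05). Plagl1, an imprinted zinc finger growth inhibitor, was at the floor in WT (7.85 to 7.90) and at 9.66 to 10.32 in KO, at least 3.79-fold higher. Cdkn2a, which encodes the tumour suppressors p16 and Arf, gave 8.36, 8.32, 8.66, 8.40 and 8.29 in WT and 10.47, 10.79, 10.85, 10.14 and 10.21 in KO (2.09 ± 0.098, adjusted p = 1.63e-06). The others were Ramp3, a partner of the calcitonin receptor-like receptor (at least 3.94-fold), Cyba, a subunit of NADPH oxidase (3.73-fold), Ldhb, a lactate dehydrogenase (3.49-fold), Bhlhb9 (3.48-fold), the mesothelial protein Msln (3.34-fold), Cdsn (3.25-fold) and Dact1 (3.03-fold).

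Among the 10 genes lowest in KO, Efemp1, a fibulin of the extracellular matrix, gave 11.92, 11.86, 11.74, 11.88 and 12.06 in WT and 8.61, 8.60, 8.58, 8.65 and 8.66 in KO, a 9.67-fold lower signal in KO (-3.27 ± 0.057 SE, limma adjusted p = 1.57e-08). Cdh11, a cadherin of mesenchymal cells, was near the floor in KO, at 8.12 to 8.22 against 11.12 to 11.35 in WT, with 1 KO array below the floor (difference -3.05, and -5.27 after subtraction of background). Tgfbi, a matrix protein induced by TGF-beta, was 7.69-fold lower, and its KO arrays fell into 9.72 to 9.89 in experiments 1 to 3 and 8.41 and 8.44 in experiments 4 and 5. Mmp2, a gelatinase, was 6.17-fold lower, and the bicarbonate transporter Slc4a4 5.70-fold, Hivep3 5.66-fold, Emb at least 5.10-fold, prostacyclin synthase Ptgis 4.76-fold and the basement membrane protein Nid2 4.50-fold. Mgp, an inhibitor of calcification, was 4.31-fold lower, with KO arrays at 10.21 to 10.51 in experiments 1 to 3 and 9.30 and 9.16 in experiments 4 and 5. All 20 genes had arrays without overlap between the lines. They were picked for the largest differences at 30 min, so this is no test of them. Of all probe sets tested, 9.98% had every KO array above every WT array and 8.44% every KO array below. Each fold is that of 1 probe set per gene. Another probe set gave a smaller log2 difference for Cdh11 (-0.83), Hivep3 (-0.42) and Emb (-0.097, no call, limma adjusted p = 0.19). The probe sets of Tgfbi ranged from -2.94 to -2.31, those of Mmp2 from -2.71 to -2.62 and those of Slc4a4 from -2.51 to -1.21. Background subtraction made the log2 difference over 1.5 times as large for 12 of the 20, up to 2.28 times for Ramp3, with Cyba at 3.97 in place of 1.90 and Slc4a4 at -4.52 in place of -2.51, so the folds hold for the deposited scale alone.

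Of 36 immediate-early transcription factors tested, 14 were higher in KO at 30 min and 8 lower (38.9% and 22.2%, beside 15.6% and 12.2% of all genes), with a median of 0.20 beside -0.0054 over all genes. The NR4A nuclear receptors were the highest. Nr4a2 gave 9.60, 9.70, 9.44, 9.30 and 9.48 in WT and 10.55, 10.78, 10.86, 11.31 and 10.99 in KO (1.40 ± 0.13 SE, limma adjusted p = 0.000109), and Nr4a3 9.03 to 9.53 in WT and 9.95 to 11.15 in KO (1.14, adjusted p = 0.00509). Some of their other probe sets did not pass. In contrast to Nr4a1, neither had fallen by 1 log2 by 30 min, and they were still 1.04 and 1.07 higher at 120 min. Id2, an inhibitor of basic helix-loop-helix factors (1.13), the Krüppel-like factors Klf4 (0.88) and Klf2 (0.44), Fosb (0.66), the cyclic AMP response modulator Crem (0.61), Atf3 (0.42) and Fos (0.41, lost without experiment 1, 3 or 5, adjusted p up to 0.0639) were also higher. Klf10 (-0.59), Egr2 (-0.56), the Fos relative Fosl1 (-0.48) and Maff (-0.47) were lower.

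Of 22 genes of MAP kinase and receptor feedback, 7 were higher and 6 lower (31.8% and 27.3%, beside 15.6% and 12.2% of all genes, median -0.078). Beside Dusp1 and Dusp2, the phosphatase Dusp16 (0.39) and the G protein regulator Rgs2 (0.39) were higher. The ERK phosphatase Dusp4 gave 9.74, 9.73, 9.51, 9.53 and 9.48 in WT and 8.79, 8.85, 8.74, 8.58 and 8.61 in KO (-0.89 ± 0.052 SE, limma adjusted p = 5.43e-06), and the STAT5 feedback inhibitor Cish lay at 9.14 to 9.66 and 8.43 to 8.76 (-0.81). Dusp5 (0.094) and Dusp6 (0.14), which act on ERK, did not pass. Members of 1 phosphatase family thus had calls in opposite directions.

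Of 27 cytokines, chemokines and growth factors, 8 were higher and 10 lower (29.6% and 37%, beside 15.6% and 12.2% of all genes, median -0.055). Il11, of the interleukin 6 family, gave 8.75, 8.66, 8.76, 8.80 and 8.72 in WT and 9.82, 10.02, 9.81, 10.74 and 10.42 in KO, highest in experiments 4 and 5 (1.42 ± 0.13 SE, limma adjusted p = 6.74e-05). Lif, a relative that keeps stem cells undifferentiated, lay at 9.83 to 10.56 in WT and 11.23 to 11.53 in KO (1.06). Cxcl10 (0.70) and Bmp2 (0.67) were higher, and the macrophage growth factor Csf1 (-0.81), the activin subunit Inhba (-0.90) and Tgfb2 (-0.59) lower. The call of Inhba was lost without experiment 2 or 3 (adjusted p up to 0.0954) and that of Tgfb2 without experiment 1, 2, 4 or 5 (up to 0.122). With all experiments, the 4 tested probe sets of Tgfb2 were each called lower (-0.59 to -0.24).

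Il6 depended on the experiment. It gave 10.82, 10.81, 11.11, 11.13 and 11.13 in WT and 9.45, 9.43, 9.80, 11.38 and 11.24 in KO. The WT arrays were alike, while KO was below them in experiments 1 to 3 and above them in experiments 4 and 5. Over 5 experiments the difference of -0.74 ± 0.25 did not pass (adjusted p = 0.0629). Experiments 1 to 3 alone gave -1.35 (limma adjusted p = 4.28e-05). Experiments 4 and 5 alone gave 0.17 (adjusted p = 0.0198), with 1 degree of freedom per probe set left. In that setting 5575 probe sets were called higher and 4044 lower, so the call carries little weight. Since these groups of experiments follow the Il6 values above, their p-values are no test of a difference between experiments.

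Of 16 genes reported as TTP targets that were tested, 7 were higher in KO at 30 min (Lif, Plk3, Ier3, Ptgs2, Fos, Myc and Cxcl1) and 2 lower (Csf1 and Birc3), with a median of 0.088. The shares were 43.8% and 12.5%, beside 15.6% and 12.2% of all genes. This list includes Ier3, which was picked on these samples, and is not independent evidence of a direction. Ptgs2, the inducible cyclooxygenase, was already near the top of the range, at 12.05 to 12.34 in WT and 12.56 to 12.67 in KO (0.42 ± 0.054 SE, limma adjusted p = 0.000596). Plk3, a stress-responsive polo-like kinase, lay at 9.05 to 9.59 and 9.64 to 10.09. Its difference was 0.20 at 0 min (adjusted p = 0.21), 0.65 at 30 min (adjusted p = 0.000241) and 0.91 at 120 min. The change of this difference did not pass from 0 to 30 min, where no probe set did, nor from 30 to 120 min (-0.26, limma adjusted p = 0.529).

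Of 16 genes of NF-kappaB feedback and its targets, 4 were higher (Vcam1 by 0.89, Nfkbiz by 0.45, Bcl3 by 0.42 and Nfkbia by 0.29) and 3 lower. The shares were 25% and 18.8%, beside 15.6% and 12.2% of all genes. Nfkbia, the inhibitor IkappaB alpha, lost its call without experiment 4 (adjusted p = 0.0642). With all experiments, 4 of its 5 tested probe sets were called higher and 1 had no call, with differences from 0.15 to 0.48. Tnfaip3, the deubiquitinase A20, gave 9.10, 9.22, 8.90, 9.13 and 9.11 in WT and 8.51, 8.51, 8.61, 8.72 and 8.70 in KO (-0.48 ± 0.061 SE, limma adjusted p = 0.000557). Birc3, an inhibitor of apoptosis, was lower as well (-0.40). Among 12 survival and apoptosis regulators, 3 were higher (25%), among them Bcl2l1 (0.62), and 3 lower (25%), among them Bcl2 (-0.51).

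Of 21 p53 targets and growth-arrest genes, 7 were higher and 7 lower (33.3% each, beside 15.6% and 12.2% of all genes, median 0.017). The cell cycle inhibitor Cdkn1a (p21) gave 10.03, 10.31, 10.06, 9.76 and 9.78 in WT and 8.80, 8.83, 8.76, 9.00 and 8.82 in KO (-1.14 ± 0.099 SE, limma adjusted p = 5.46e-05). Ccng1 (-1.24) and the RNA-binding p53 target Zmat3 (-0.61) were lower too, while Cdkn2a, Btg1 (0.50) and the inhibitor Cdkn1b (p27, 0.50) were higher. Of 20 cell cycle genes, 11 were higher and 0 lower (55% higher, beside 15.6% of all genes, median 0.33). Among them were the replication helicase subunits Mcm7 (0.77) and Mcm4 (0.70), topoisomerase Top2a (0.69, adjusted p = 0.0606 without experiment 3) and cyclin A2 (Ccna2, 0.63). The arrays of these 4 overlapped, since the WT array of experiment 5 was the highest WT array for each, at 10.15 for Mcm7.

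**Figure D4:**
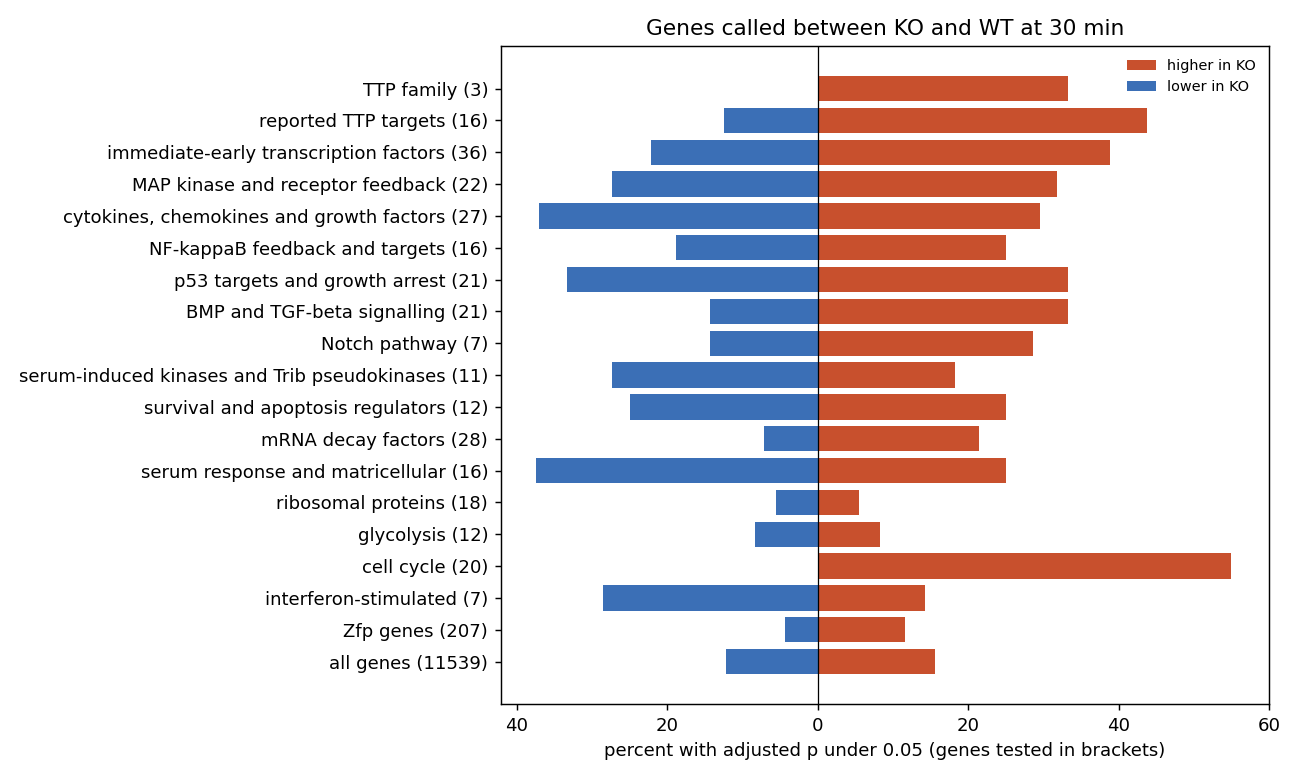
Percent of the tested genes of each list (number tested in brackets) that were called higher in KO (right, orange) or lower (left, blue) at 30 min, with all 11539 genes in the bottom row at 15.6% higher and 12.2% lower. Ribosomal protein and glycolysis genes stay below that row on both sides, and the cell cycle and TTP family lists have calls on the higher side alone.

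Among 28 mRNA decay factors, 6 were higher and 2 lower (21.4% and 7.14%, beside 15.6% and 12.2% of all genes), and the median was 0.034. In either direction 28.6% were called, close to the 27.9% of all genes. The decapping enhancer Edc4 was at 0.35 and the helicase Ddx6 at -0.23 (lost without experiment 2 or 4, limma adjusted p up to 0.0647). Of 21 genes of BMP and TGF-beta signalling 7 were higher (33.3%), among them the antagonist Grem1 (0.85), and 3 lower (14.3%), among them the receptor Acvr1 (-0.69). Of 16 serum response and matricellular genes 4 were higher (25%), among them tenascin Tnc (1.57) and Tagln (1.11), and 6 lower (37.5%), among them smooth muscle actin Acta2 (-0.48). Nuak2, a kinase related to AMPK, was the lowest of 11 serum-induced kinases (-0.61), 2 of which were higher and 3 lower (18.2% and 27.3%). Ribosomal protein genes (1 of 18 higher, 1 lower) and glycolysis genes (1 of 12 higher, 1 lower) had fewer calls than the 15.6% and 12.2% over all genes. Of 207 further genes with symbols beginning with Zfp, 24 were higher and 9 lower (11.6% and 4.35%). Notch pathway (2 of 7 higher, 1 lower, 28.6% and 14.3%) and interferon-stimulated genes (1 of 7 higher, 2 lower, 14.3% and 28.6%) had few members above the filter. Of 17 fibroblast markers, 5 were higher (29.4%), among them the growth factor receptor Pdgfra (1.25), and 4 lower (23.5%), among them Postn (-1.86).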

How the data were processed

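The deposited table gives log2 signals per probe set of Affymetrix mouse genome arrays. Per the labels' protocols, labelled cRNA was made from 1 ug of total RNA, 15 ug of it was hybridised for 16 h, and GeneChip Operating Software 1.2.0.037 read the arrays. The summary and normalization of the probes by the authors are not stated in the sources used here. That the deposited values are log2 follows from their range, and their scaling was kept.

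Of 45101 probe sets, 64 AFFX controls were left out, and 23568 were tested, whose signal exceeded the median of the array on 4 or more of the 10 arrays at 30 min. The platform annotation names 1 gene for 20157 of them, several for 610 and none for 2801. A gene is represented by its probe set with the highest mean over the 48 arrays. Of 54 genes named here with over 1 probe set tested, 0 had calls in both directions and 16 had both a probe set with a call and a probe set without a call. The number of arrays limits the precision.

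KO and WT were compared with limma 3.58.1 (R 4.3.3), with the experiment as a block and trended, robust empirical Bayes, and a two-sided Benjamini-Hochberg adjusted p of 0.05 over all probe sets tested was the threshold. Changes of the difference between times used 1 double difference per experiment, 4 with 0 min and 5 with 120 min. The pairing comes from the series text, which says that the lines were handled together in 5 experiments, and the replicate number was taken as the experiment. Deviations from the group means of same-numbered arrays at 30 min correlated at -0.14, 0.21, -0.25, 0.30 and 0.61 for experiments 1 to 5, where the highest correlation with an array of another number was 0.43, 0.36, 0.34, 0.16 and 0.12. Errors of means are SD and errors of differences SE.

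Named genes were Zfp36 and Ier3, the 10 highest and 10 lowest, those that faded, the short-lived ones, and members of 18 gene lists and 9 marker lists. Foxc2, Foxd1, Foxf1, Dact1, Irx3, Mllt11 and Ifrd1 are named among the 37 genes whose difference changed from 30 to 120 min, chosen with their values known where no other rule names them. The members and lists were chosen with earlier results of these data known. The fit was tested on simulated data. The alternatives were no pairing, all 48 arrays, other filters, quantile normalization, background subtraction, plain empirical Bayes, each experiment left out, experiments 1 to 3 and 4 and 5, and the mean of a gene's probe sets. A fold against a group at or under the floor of 8.13 is given as at least so high. Promoter sequences are from RefSeq on GRCm38.p6.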

Additional observations from a re-analysis of the deposited data

Results flagged for a closer look

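In 17 of 234 groups of 5 arrays over the 117 genes named, 1 array lay far from the other 4, where its gap to the nearest one is given as a share of the group's range, and about 5% of groups pass the limit of 0.71 by chance. The WT array of experiment 2 was the one apart for Egr1 (0.793), Ier5 (0.883), Myc (0.77), Nfkbiz (0.765), Tle4 (0.829) and Dact1 (0.83), each time above the others, and for Rgs2 (0.767), below them. The KO array of experiment 5 was the lowest for Plk2 (0.948), Dusp6 (0.828), Dusp2 (0.793), Ier2 (0.735) and Myc (0.735). In KO, experiment 1 was the lowest for Birc3 (0.789) and Ppp1r12b (0.742). In WT, experiment 3 was the highest for Cyba (0.94), experiment 1 for Tagln (0.711) and experiment 5 for Ccna2 (0.717).

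The difference between the lines changed from 30 to 120 min, by limma's test of that change, for 30 of the genes named. KO minus WT at 30 min less that at 120 min was above 0 for Dusp1 (1.26), Dact1 (1.00), Chac1 (0.79), Nr4a1 (0.70), Csrnp1 (0.68), Foxc2 (0.56), Foxf1 (0.52), Foxq1 (0.42), Zfp703 (0.37) and Dusp2 (0.31). It was below 0 for Irx3 (-1.22), Ier3 (-1.15), Plk2 (-0.75), Dusp4 (-0.74), Ier5 (-0.72), Smad1 (-0.70), Mllt11 (-0.68), Cish (-0.67), Socs5 (-0.63) and Ifrd1 (-0.61). The same held for Cnksr3 (-0.58), Ppp1r12b (-0.56), Neat1 (-0.55), Arc (-0.48), Mcl1 (-0.48), Foxd1 (-0.44), Clcf1 (-0.44), S1pr2 (-0.39), Cxcl1 (-0.37) and Mtss1 (-0.31). With each experiment left out in turn, 7 of the 30 calls were kept throughout, against 94 of 106 calls at 30 min.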

How the results depend on the processing

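Leaving out 1 experiment at a time gave 2053 to 3270 probe sets higher in KO at 30 min, 1775 to 3674 lower, 2415 to 5328 called at 0 min, 5768 to 7570 at 120 min, 0 to 1 for the change from 0 to 30 min, 11 to 73 for that from 30 to 120 min, 3 to 9 faded from higher, 1 to 16 faded from lower and 16 to 20 short-lived. Experiments 1 to 3 alone gave 1237 higher and 1243 lower at 30 min, 10 changed from 30 to 120 min, 2 faded from higher and 2 from lower, and 11 short-lived. Experiments 4 and 5 alone gave 5575, 4044, 555, 67 and 81, with 1 degree of freedom per probe set left for the spread. Without the replicate block, 3238 were higher and 2655 lower at 30 min, 2 changed from 0 to 30 min, 35 changed from 30 to 120 min and 4 faded from lower, and Atf3, Dusp2, Mcl1 and Myc were not past the threshold at 30 min. The fit over all 48 arrays called 8570 at 0 min, 11 changes from 0 to 30 min, 196 from 30 to 120 min, and 20 and 35 faded. With no filter 1 change from 0 to 30 min was called, and the stricter filter left 5 and 5 faded. Quantile normalization left 4 faded from higher, and plain empirical Bayes 19 changed, 4 faded from higher and 1 from lower. Background subtraction left 21 changed from 30 to 120 min, 1 and 2 faded, and 51 short-lived. Signs of single genes turned for Zfp36l2 (0.10 in experiments 1 to 3, 0.060 without replicate 4), for Il6 (0.17), Trib1 (0.0015) and Zfp36 (0.082) in experiments 4 and 5, and for Zfp36 without replicate 2 (0.0027). Over the experiments left out, Zfp36 ranged from -0.13 to 0.0027 and Zfp36l2 from -0.078 to 0.060. The cause was not tested. Signals near the floor limit what can be seen of short-lived transcripts after 60 min.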
